A study of Mus musculus with 12 samples.

Results

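The hormones of the islet cells other than beta cells were followed through 6 genes, taken by name: Gcg, Sst, Ppy, Pyy, Ttr and Rbp4. All 7 non-control probes of these genes were read, out of 41174 non-control probes on the array. Of them 6 probes, standing for 5 genes, were bright enough to be tested among 3920 genes, and Ttr was not. Gcg and Sst were each printed as 10 spots per array, Pyy was covered by 2 probes, and the other probes by 1 spot each.

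Islets were cut by laser from pancreas sections of 6 NOD mice, an inbred strain that develops autoimmune diabetes, and of 6 NOD.B10 mice, which share the NOD background, carry another MHC haplotype and stay free of diabetes. All mice were females of 12 weeks, untreated as far as the labels state. The islet RNA of each mouse was amplified and labelled with Cy5, and a commercial universal mouse RNA was labelled with Cy3 as the common reference on each of the 12 arrays. The labels do not say how many islets went into a sample or how much infiltrate was cut with them, and in such bulk RNA fewer cells of a type and less RNA per cell cannot be told apart.

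Alpha cells make glucagon, which raises blood glucose, by cutting the proglucagon that Gcg encodes. Delta cells make somatostatin from Sst, which restrains the release of insulin and glucagon from their neighbours. PP cells make pancreatic polypeptide from Ppy, a relative of peptide YY, which Pyy encodes in islet and gut endocrine cells. Rbp4 encodes the retinol carrier of plasma and, in mouse islets, marks delta cells, while Ttr encodes transthyretin, a carrier of thyroid hormone and of the retinol carrier itself that alpha cells also make. In NOD mice the immune attack is directed at the beta cells, so these genes give the hormone readings of the neighbouring cells in the same cuts.

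The 250 bases upstream of the transcription start were printed for a hormone gene of each cell type, since the report turns on whether these genes moved together. The sequences are RefSeq's on build GRCm38.p6, at chr2:62483654-62483903 for Gcg, chr16:23890845-23891094 for Sst, chr11:102101320-102101569 for Ppy and chr11:102107833-102108082 for Pyy, all on the minus strand and ending at the base before the start. Capitals mark the cAMP response element TGACGTCA and the TATA motif TATAAA, each searched on both strands, so TTTATA is the latter read from the other strand.
Gcg: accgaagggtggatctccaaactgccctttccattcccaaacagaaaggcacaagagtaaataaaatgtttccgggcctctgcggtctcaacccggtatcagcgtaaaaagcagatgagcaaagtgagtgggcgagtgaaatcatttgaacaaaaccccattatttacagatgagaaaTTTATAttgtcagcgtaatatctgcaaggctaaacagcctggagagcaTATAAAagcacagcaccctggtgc
Sst: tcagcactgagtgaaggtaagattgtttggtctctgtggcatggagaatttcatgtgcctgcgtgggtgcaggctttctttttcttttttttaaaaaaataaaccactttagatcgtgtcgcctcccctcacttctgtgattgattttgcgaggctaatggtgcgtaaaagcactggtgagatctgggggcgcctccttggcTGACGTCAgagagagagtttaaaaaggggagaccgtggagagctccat
Ppy: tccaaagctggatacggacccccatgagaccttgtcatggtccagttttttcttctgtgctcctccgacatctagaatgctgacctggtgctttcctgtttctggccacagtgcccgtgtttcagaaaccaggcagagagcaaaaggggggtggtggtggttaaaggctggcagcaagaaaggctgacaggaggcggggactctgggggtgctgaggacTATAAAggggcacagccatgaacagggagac
Pyy: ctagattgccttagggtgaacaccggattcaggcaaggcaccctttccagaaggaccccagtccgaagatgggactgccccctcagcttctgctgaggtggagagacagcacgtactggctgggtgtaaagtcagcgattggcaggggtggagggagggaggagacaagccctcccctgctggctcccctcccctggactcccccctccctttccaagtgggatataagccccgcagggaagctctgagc
The cAMP response element was found in the Sst window alone, 40 bases before the start, and in 1.55% of 32851 promoter windows of the same length. The TATA motif stood 18 bases before the start of Gcg, which held it once more on the other strand, and 25 bases before that of Ppy, against 12.4% of all windows. Neither motif was in all 4 windows, and the Pyy window held neither, which says only that these letters are not there. The coordinates are not those of the array design, whose build differs.

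The islet channel was not equally bright in the strains, which bears on every value below. Cy5 was well above background on 10.7 to 17.3% of spots on NOD arrays and on 3.96 to 7.88% on NOD.B10 arrays (exact 2-sided permutation p = 0.00216, the smallest that 6 against 6 arrays can give), while the reference channel was so on 46.7 to 51.9% of spots in NOD and 47.8 to 54.4% in NOD.B10 (exact permutation p = 0.781). Over 1083 probes above background on all arrays, net Cy5, the signal minus its local background in scanner units, was higher in NOD by a median of 1.65 on the log2 scale. No spot was saturated. Slide 1 held 2 NOD mice, slide 4, read on another day, held 2 NOD.B10 mice, and slides 2 and 3 held 2 mice of either strain.

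Gcg gave a strong islet signal on all 12 arrays. Its net Cy5 was 22366, 26896 and 35958 scanner units (lowest, median and highest) in NOD, against 9373, 10304 and 23673 in NOD.B10. The NOD.B10 arrays lay close together except for replicate 5, which read above the lowest NOD array, so the groups overlapped by this mouse. On the log2 scale the mean difference of net Cy5 was 1.24, with 1.24 within slide 2 and 0.91 within slide 3, which is less than the 1.65 of the median bright probe. The scanner took 8 to 10 of the 10 Gcg spots from its low-gain scan on NOD arrays and 0 to 7 on NOD.B10 arrays, and the part of this in the Gcg values was not tested.

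Sst, too, was well above background on all arrays. It had a net Cy5 of 1940, 2646 and 4363 units in NOD, against 929, 1424 and 2884 in NOD.B10, a mean log2 difference of 0.92 (0.97 and 0.32 within slides 2 and 3). The upper 3 NOD arrays lay above all NOD.B10 arrays, and the other 3 lay among them. The brighter Pyy probe, A_51_P241733, gave 447.5, 1020 and 1589 units in NOD, against 270.5, 516 and 791 in NOD.B10, a log2 difference of 0.89. Here 4 NOD arrays stood above the NOD.B10 range, and on slide 2 the strains read alike (0.0037 on the log2 scale). The other Pyy probe, A_52_P366462, read only 2.5 to 30.5 units in NOD and 2.5 to 12 in NOD.B10, and was well above background on 5 NOD and 2 NOD.B10 arrays.

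Rbp4 was dim in the islet channel and very bright in the reference. Its net Cy5 was 184, 244 and 330 units in NOD, against 103.5, 119 and 194 in NOD.B10, with 5 of 6 NOD arrays above all NOD.B10 arrays. The same spot read 65638 to 78809 units in Cy3 on NOD arrays and 52373 to 89659 on NOD.B10 arrays. Cy5 thus came to 0.28 to 0.491% of Cy3 in NOD and 0.127 to 0.285% in NOD.B10. For all probes with Cy3 over 30000 units the median of that percentage was 0.309 to 0.443% on NOD arrays and 0.0738 to 0.194% on NOD.B10 arrays, so the Rbp4 reading lay near that of other reference-bright probes in NOD, and its part in the Rbp4 values was not tested.

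Ppy and Ttr were at or near background. The only Ppy probe read 5 to 9.5 units in NOD and 3 to 23 in NOD.B10, and was well above background on 1 NOD and 3 NOD.B10 arrays. The Ttr probe read -2 to 11 units in NOD and -1 to 8.5 in NOD.B10 and was well above background on 1 NOD array and on no NOD.B10 array, although its Cy3 signal was 792 to 1358 units in NOD and 793.5 to 1261 in NOD.B10. Neither gene is given a fold, and the log2 differences of Ppy below rest on a probe near background. The levels of different probes are not comparable, so a dim probe does not show that a transcript was scarce.

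**Figure D1:**
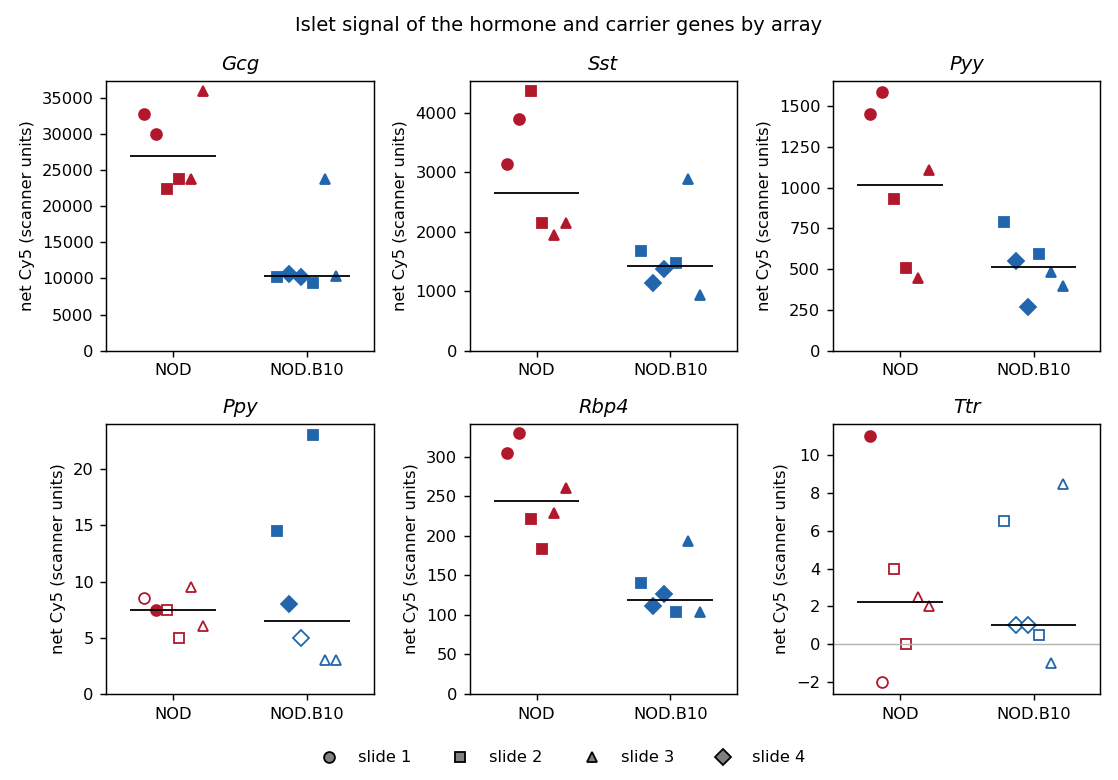
Net Cy5 signal (scanner units, linear axes) of 1 probe per gene for the 6 NOD arrays (red) and the 6 NOD.B10 arrays (blue). Filled symbols were well above background, symbol shapes are slides and bars are medians. Gcg on the NOD.B10 arrays lies between 9373 and 10620 apart from the 23673 of replicate 5, and Ppy and Ttr stay at or under 23 units.

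For the comparison between strains each Cy5 signal was set against Cy3 on the same spot after background correction and a loess curve within the array, and the log2 ratios were tested with limma over all 3920 genes (Benjamini-Hochberg adjusted p, threshold 0.05). Gcg and Rbp4 were lower in NOD, and Sst, Ppy and Pyy did not pass. Of all genes tested, 18.1% were called lower (709) and 18.8% higher (735), so 2 of 5 hormone and carrier genes lower and 0 of 5 higher is to be read against these shares.

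The log2 ratio of Gcg ran from 10.57 to 13.03 with a median of 12.15 in NOD, against 12.62 to 14.18 with a median of 12.9 in NOD.B10. The groups overlapped, with 5 NOD arrays below the NOD.B10 range. The difference was -1.19 ± 0.38 (SE, n = 6 per strain, limma adjusted p = 0.0265), a level 2.28-fold lower in NOD, and -0.58 and -1.21 within slides 2 and 3, where the adjusted p was 0.213 and 0.251 in limma. Leaving out each mouse in turn gave -1.40 to -0.91, and 3 of these 12 fits no longer passed.

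The log2 ratio of Rbp4 ran from -1.55 to 0.69 with a median of -0.43 in NOD, against 0.69 to 1.72 with a median of 1.37 in NOD.B10. The groups did not overlap, which held for 7.42% of all genes in that direction. The difference was -1.72 ± 0.30 (SE, limma adjusted p = 0.000968), or 3.28-fold lower in NOD, with -1.46 and -1.52 within slides 2 and 3 (limma adjusted p = 0.0592 and 0.258). It passed in all 12 fits without 1 mouse. The plain net log2 ratio of Rbp4 went the other way, at -8.48 to -7.67 in NOD and -9.63 to -8.46 in NOD.B10. It was 0.95 higher in NOD (exact permutation p = 0.00433). Background correction and loess had added 6.12 to 9.12 log2 units to it in NOD and 10.03 to 10.96 in NOD.B10.

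Sst had log2 ratios of 7.37 to 9.27 with a median of 7.70 in NOD, against 7.58 to 9.62 with a median of 8.35 in NOD.B10. Its difference of -0.44 ± 0.37 (SE, limma adjusted p = 0.376) had a 95% interval from -1.24 to 0.36. Pyy had log2 ratios of 5.32 to 6.97 in NOD and 4.76 to 7.17 in NOD.B10 at the brighter probe, and its difference was 0.19 ± 0.40 (SE, limma adjusted p = 0.734, interval -0.66 to 1.05). The dim Pyy probe, fitted among 5347 passing probes, gave 0.36 ± 0.17 (SE, limma adjusted p = 0.125). Ppy differed by -0.12 ± 0.15 (SE, limma adjusted p = 0.547, interval -0.44 to 0.20), with its signal near background. A p that misses the threshold does not show that these 3 genes were equal in the strains. Ttr was not tested. Its log2 ratios, -1.35 to -0.54 in NOD and -0.49 to 0.16 in NOD.B10, did not overlap although its net Cy5 did, and background correction and loess had added 6.01 to 9.32 log2 units to its net ratio in NOD and 6.93 to 9.96 in NOD.B10.

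The calls for Gcg and Rbp4 depended on the scaling, and so did those for Sst and Pyy. Sst and Pyy were called lower in NOD with net Cy5 of bright probes. Pyy was also called lower with Cy5 alone after quantile normalisation, but higher with median centring. Their values are given with the other settings at the end. Background correction and loess added 6.04 to 9.27 log2 units to the plain net ratio of Gcg in NOD and 9.80 to 10.89 in NOD.B10. The plain net log2 ratio itself was higher in NOD, at 3.67 to 4.53 against 2.63 to 3.51 in NOD.B10. The strains did not overlap on either measure, and the share of all genes for which this held was not computed. With arrays centred on their median, which moved the median of all genes by 0.44, Gcg was 0.77 higher relative to that shift (limma adjusted p = 0.000105), and with Cy5 alone after quantile normalisation it was 0.71 higher (limma adjusted p = 0.0138). With net Cy5 of bright probes centred on their median it was -0.51 (limma adjusted p = 0.106), and with their net ratio -0.48 (limma adjusted p = 0.0303). With a smaller offset in the background correction, 16 in place of 50, Gcg was -2.31 (limma adjusted p = 0.000396), and with the scanner's processed ratio -2.05 (limma adjusted p = 0.00339). Median centring likewise turned Rbp4 (0.35) and Sst (0.53). Rbp4 kept its sign and its call with Cy5 alone after quantile normalisation (-0.82) and with net Cy5 (-0.77) and the net ratio (-0.67) of bright probes. The share of bright spots moves with the strain, and its part in these differences was not tested. With that share as a covariate limma called 3 genes higher and 0 lower, with 156 higher and 137 lower at an unadjusted p under 0.05.

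**Figure D2:**
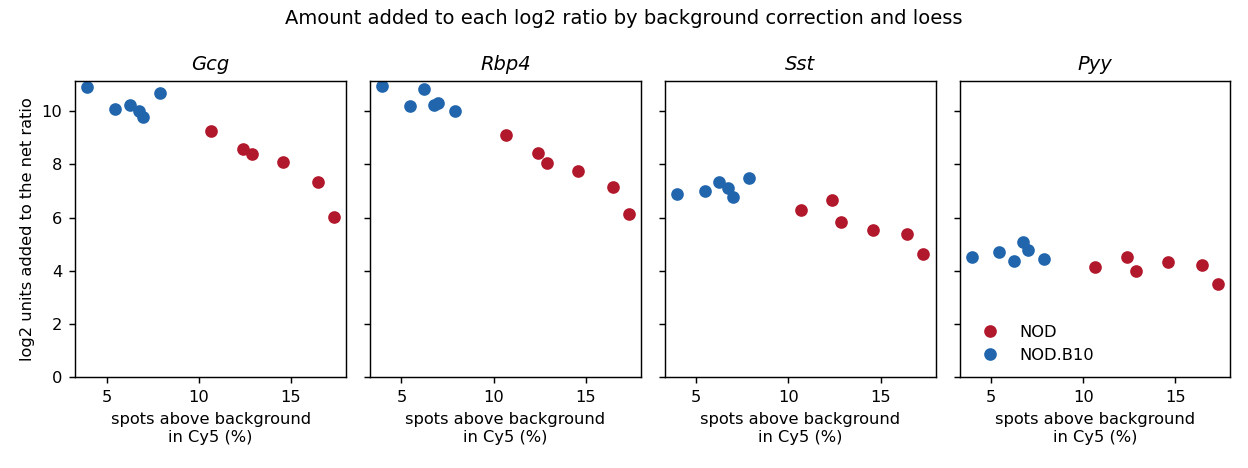
Log2 units added to the net Cy5/Cy3 ratio by background correction and loess (vertical) against the percentage of spots well above background in Cy5 (horizontal), 1 point per array, NOD in red and NOD.B10 in blue. For Gcg the amount was 6.04 to 9.27 on NOD arrays and 9.80 to 10.89 on NOD.B10 arrays, and it was least on the brightest arrays.

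**Figure D3:**
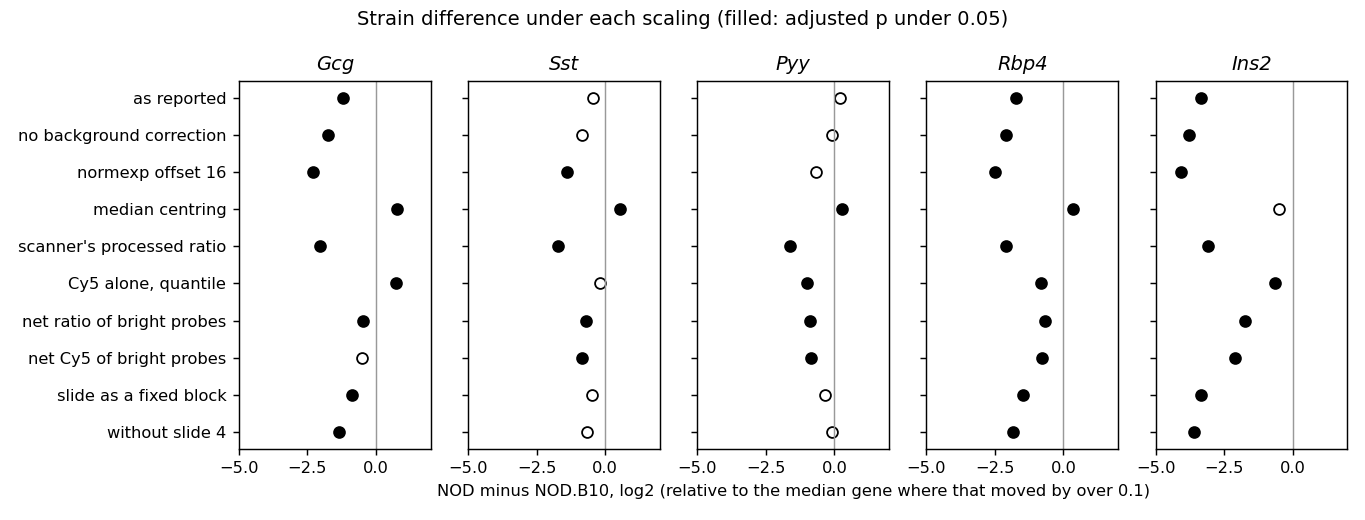
Log2 difference of NOD minus NOD.B10 (horizontal) for 4 hormone or carrier genes and Ins2 under 10 ways of scaling or fitting (rows), filled where the limma adjusted p was under 0.05. Gcg lies at -1.19 as reported and at 0.77 and 0.71 with median centring and with Cy5 quantiles, while Ins2 stays below 0 in all rows.

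A measure that needs no curve is the share of all net Cy5 signal on the array that falls on a probe. Gcg took 3.05 to 5.29% of it in NOD (median 4.68%) and 2.68 to 6.48% in NOD.B10 (median 4.40%). The groups lay across each other, and the log2 difference of the share was 0.06 ± 0.26 (SE, limma adjusted p = 0.840 over 838 bright genes), or 0.10 and -0.14 within slides 2 and 3. Sst took 0.306 to 0.893% in NOD and 0.288 to 0.79% in NOD.B10 (log2 difference -0.25 ± 0.31, limma adjusted p = 0.516). Pyy took 0.1 to 0.191% in NOD and 0.0902 to 0.314% in NOD.B10 (-0.28 ± 0.33, limma adjusted p = 0.488). Rbp4 took 0.0336 to 0.051% in NOD and 0.0282 to 0.0557% in NOD.B10 (-0.19 ± 0.24, limma adjusted p = 0.521). Among the 838 genes 38.4% were called higher in share and 6.09% lower, and the median gene was 0.51 higher on the log2 scale, so the differences of all 4 genes lay below that of the median gene. The insulin gene Ins2 took 0.655 to 4.59% in NOD and 3.18 to 6.96% in NOD.B10, a log2 difference of -1.53 ± 0.38 (SE, limma adjusted p = 0.00462).

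**Figure D4:**
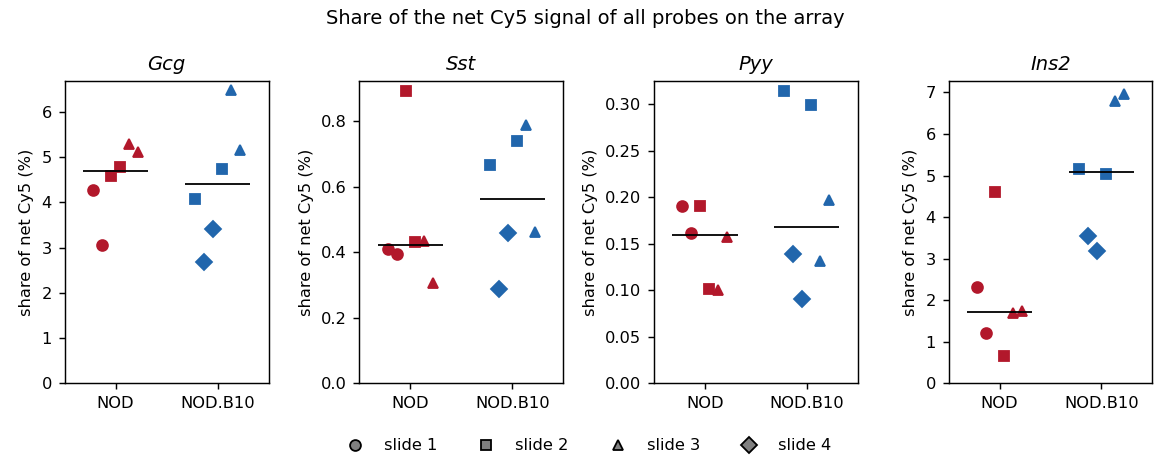
Share of the net Cy5 signal of all probes on an array (%, linear axes from 0) that fell on the probes of Gcg, Sst, Pyy and Ins2, for NOD (left) and NOD.B10 (right) arrays. Bars are medians and symbol shapes are slides. The Gcg shares of the strains overlap, at 3.05 to 5.29% in NOD and 2.68 to 6.48% in NOD.B10, whereas 5 of 6 NOD arrays lie below all NOD.B10 arrays for Ins2.

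The balance among these hormones was taken within each array as the log2 ratio of a gene minus that of another. What shifts both probes alike then drops out. The amount that background correction and loess added was not alike for all genes and stays in the loess balances. Between the strains it differed by -2.34 for Gcg, -1.38 for Sst, -0.53 for Pyy and -2.66 for Rbp4. Its part in the balances was not tested. On loess ratios none of 10 pairs of the 5 genes passed an exact 2-sided permutation test after Benjamini-Hochberg adjustment over the pairs. This depended on the scaling, since 8 of the 10 passed with Cy5 alone after quantile normalisation (adjusted exact permutation p of 0.0108 to 0.0379) and 3 with median centring (0.0216 to 0.0433). With Cy5 quantiles Gcg minus Sst was 0.89 and Gcg minus Pyy 1.70, both higher in NOD. Gcg minus Sst, the balance of glucagon and somatostatin transcripts, was 0.75 lower in NOD (adjusted exact permutation p = 0.198), with -0.54 and -0.27 within slides 2 and 3. Gcg minus Pyy was 1.39 lower (adjusted exact permutation p = 0.162), but 0.30 and -1.39 within the slides. Sst minus Pyy was 0.64 lower (adjusted exact permutation p = 0.395), but 0.84 and -1.12 within the slides. The smallest adjusted exact permutation p, 0.0541, was shared by Sst minus Rbp4 (1.27, within slides 1.42 and 0.58) and Ppy minus Rbp4 (1.59, within slides 0.89 and 1.70).

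On net Cy5 alone the same balances moved less. Gcg minus Sst was 0.31 higher in NOD, 0.26 and 0.59 within the slides. Gcg minus Pyy was 0.35 higher and Sst minus Pyy 0.03 higher, and 0 of 6 pairs passed (adjusted exact permutation p of 0.584 to 0.968). The direction of Gcg minus Sst and of Gcg minus Pyy therefore differed between loess ratios and net Cy5, and neither passed on these 2 scales.

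Set against the beta cell hormones, taken as the mean of Ins1, Ins2 and Iapp, the gene of amylin, all 5 genes had higher balances in NOD on loess ratios, and those of Sst, Pyy and Ppy passed. Sst gave -0.08 to 2.35 in NOD, against -2.26 to -0.26 in NOD.B10, without overlap, a difference of 1.77 (adjusted exact permutation p = 0.0108, within slides 1.65 and 1.39). Pyy differed by 2.41 (adjusted exact permutation p = 0.0180, within slides 0.81 and 2.51). Ppy differed by 2.09 (adjusted exact permutation p = 0.0162, within slides 1.12 and 2.51), from a probe above background on 4 of 12 arrays, and with median centring by 0.066 (adjusted exact permutation p = 0.883). The Ppy ratio itself differed by -0.12 near background, so this balance carries the change of the beta cell hormones and says nothing of Ppy. Gcg differed by 1.02 (adjusted exact permutation p = 0.149, within slides 1.11 and 1.12) and Rbp4 by 0.50 (adjusted exact permutation p = 0.42, within slides 0.23 and 0.81). Without the 2 NOD.B10 mice of slide 4, Ppy (1.97) and Pyy (2.06) no longer passed, both at an adjusted exact permutation p of 0.0556.

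The same balance on net Cy5 gave 1.69 for Gcg, 1.37 for Sst, 1.34 for Pyy and 1.43 for Rbp4, and all 4 passed (adjusted exact permutation p of 0.00866 to 0.0152). Those of Sst did not overlap between the strains, which held for 42.2% of the bright genes, and on loess ratios for 14.5% of all genes. Within slides 2 and 3 these were 1.54 and 1.60 for Gcg, 1.27 and 1.02 for Sst, 0.30 and 1.39 for Pyy, and 1.04 and 1.48 for Rbp4. Most genes did the same. Against the beta cell hormones 94.7% of 3917 genes on loess ratios and 86.2% of 835 bright genes on net Cy5 were called higher in NOD by limma (0.128% lower on loess ratios), and their median differences, 2.21 and 2.14, were above those of Gcg, Sst and Rbp4 on both scales. A higher balance against the beta cell hormones was therefore not particular to the hormones described here. All these balances subtract the same beta cell values, so the calls repeat a shared change. The shares are by limma, whereas the p-values of the hormone balances are by permutation.

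Ins1 and Ins2 were lower in NOD as loess log2 ratios. Ins2 differed by -3.35 ± 0.56 (SE, limma adjusted p = 0.000641) and Ins1 by -1.75 ± 0.62 (limma adjusted p = 0.0394), though Ins1 passed in only 2 of 12 fits without 1 mouse (limma adjusted p up to 0.0819), while Iapp, at -1.53 ± 0.59, did not pass (limma adjusted p = 0.0565). On the plain net log2 ratio Ins2 differed by -0.10 (exact permutation p = 0.792) and Ins1 by 0.38 (exact permutation p = 0.245). Iapp differed there by -0.37 (exact permutation p = 0.387). Background correction and loess had added 5.50 to 8.57 log2 units to Ins2 in NOD and 9.96 to 10.98 in NOD.B10. The part of this in the loess ratios, and in the balances that subtract them, was not tested. NOD replicates 3 and 4 stood at opposite ends. Their net Cy5 for Ins2 was 22447 and 3259 units on the same slide, while for Gcg it was 22366 and 23791 units. Without NOD replicate 4 the Gcg balance on loess ratios was 0.64, and without NOD replicate 3 it was 1.40.

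**Figure D5:**
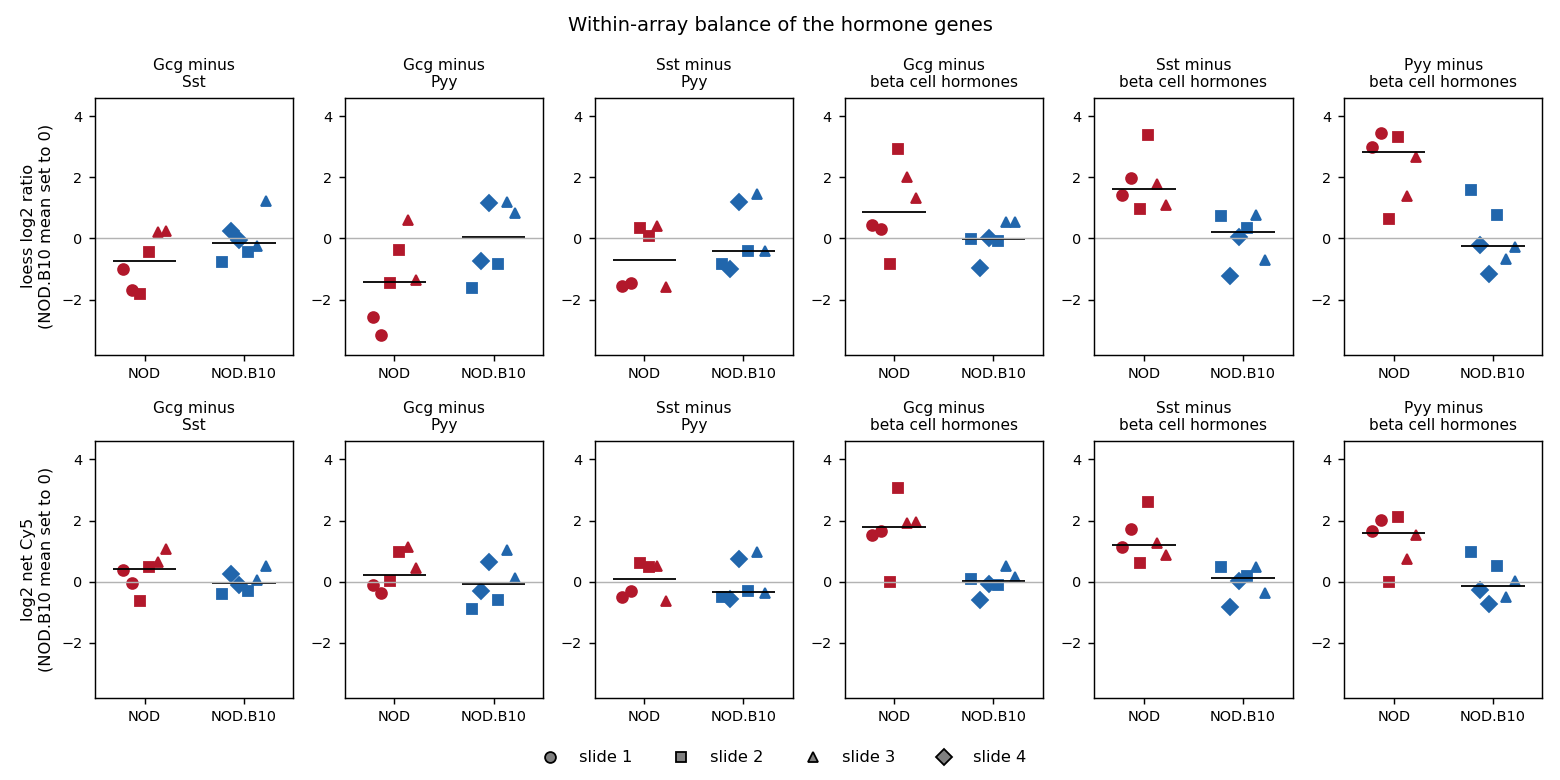
Within-array balances for NOD (left) and NOD.B10 (right) arrays, on loess log2 ratios (top) and log2 net Cy5 (bottom), each with the NOD.B10 mean set to 0. Bars are medians and symbol shapes are slides. The balances among Gcg, Sst and Pyy overlap between strains, and those of Sst against the beta cell hormones do not (differences of 1.77 and 1.37).

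Other genes of the same cell types were mostly too dim to test. The counts below are to be read against the 18.1% lower and 18.8% higher of all genes, and with median centring limma called 0 of all genes lower (2 at an unadjusted p under 0.05). Of 20 alpha cell genes on the array 9 were tested and 3 were lower (33.3%), with a median log2 difference of -0.46 against -0.0059 for all genes. Pcsk2, the protease that cuts proglucagon to glucagon, was lower by -1.41 ± 0.40 (SE, limma adjusted p = 0.0138). Beside these, Gc, the vitamin D carrier, was called lower although no NOD.B10 array read it above background, and it is given no fold. Irx1, a transcription factor (0.14), and Tm4sf4 (-0.31) did not pass. Of 15 delta cell genes 3 were tested, with Rbp4 lower and Sst not passing. Hhex, the transcription factor of delta cells, was called higher by 0.52 ± 0.19 (limma adjusted p = 0.0447), with 6 NOD and 3 NOD.B10 arrays above background. Of 13 PP cell genes 5 were tested and none passed, with Fxyd6 at -0.42, Meis2 at -0.32 and Spp1 at 0.22 beside the hormones. These lists check the labelled tissue: the hormones Gcg, Sst, Ins1, Ins2 and Iapp were above background on all 12 arrays, whereas Pdx1, Mafa and Ghsr were so on none.

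Of 15 other islet and gut hormone genes on the array 3 were tested and none passed: the enkephalin gene Penk (-0.22), Grp (-0.24) and Vip (0.08). Of 15 receptor genes 2 were tested. The glucagon receptor Gcgr was called lower (-1.06 ± 0.18, limma adjusted p = 0.000796) with only 2 NOD and 2 NOD.B10 arrays above background, and Igf1r was at 0.12. The somatostatin receptor genes Sstr1, Sstr3 and Sstr4 and the receptor genes of peptide YY and its relatives, Npy1r, Npy2r, Npy4r and Npy5r, were above background on no array.

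In retinol and thyroid hormone transport 7 of 24 genes were tested, with 4 lower and 1 higher. Beside Rbp4, the retinaldehyde dehydrogenase Aldh1a1 was lower by -1.46 ± 0.17 (limma adjusted p = 8.23e-05), and Rxra and Aldh1a2 were called lower with no NOD.B10 array above background. Stra6, the membrane receptor for the retinol carrier, was called higher with 5 NOD arrays and 1 NOD.B10 array above background and is given no fold. Thra and Rbp7 did not pass. The summed net Cy5 of the 24 genes, Rbp4 included, was 335 to 607 units in NOD and 154.5 to 311 in NOD.B10. The calls of lower in this list are thus of loess ratios, beside a higher summed islet signal in NOD.

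Of 13 tested genes of the secretory machinery that endocrine cells share, 5 were lower (38.5%, against 18.1% of all genes) and 0 higher. Chga, the granule protein chromogranin A, was lower by -2.56 ± 0.46 (limma adjusted p = 0.00112), Syn1, a vesicle protein, by -3.55 ± 1.05 (limma adjusted p = 0.0184), and Pcsk1n, an inhibitor of a prohormone protease, by -1.25 ± 0.45 (limma adjusted p = 0.0417). Of 11 tested beta cell genes 3 were lower, with the glucose transporter Slc2a2 at -2.58 ± 0.46 (limma adjusted p = 0.00100) beside the insulin genes. The endocrine transcription factors Neurod1 (0.09), Isl1 (-0.08) and Foxa2 (0.11) did not pass, 3 tested in all.

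Markers of other cells moved with the strain. Of 14 tested leukocyte markers 13 were higher in NOD. Of these 13, 11 had no NOD.B10 array above background and so entered the test through NOD arrays. The other two were above background on all arrays, with Lyz2, the lysozyme of myeloid cells, 16.5-fold and Srgn, a granule proteoglycan, 11.8-fold higher (limma adjusted p = 4.41e-08 and 1.32e-05). Ptprc and Jchain were called higher with all NOD arrays and no NOD.B10 array above background, and are given no fold. The summed net Cy5 of the 21 leukocyte genes was 1585 to 10124 units in NOD and 73.1 to 138 in NOD.B10. Of 11 tested acinar markers 7 were lower, among them Amy1 (-4.51 ± 1.19), Cpb1 (-3.48 ± 1.14), Cel (-1.61 ± 0.41) and Zg16 (-1.30 ± 0.39). Their summed net Cy5 was 400.5 to 4718 units in NOD and 325 to 12389 in NOD.B10. Of 4 tested duct markers 3 were lower (Krt8, Krt18 and Aqp1), with sums of 153 to 335 units in NOD and 55.1 to 132 in NOD.B10. The summed islet signal of the duct list was thus higher in NOD, while the loess ratios of these 3 were lower. Of 12 tested endothelial and stromal markers Vim and Dcn were higher and Col1a1 lower, with sums of 934 to 3328 units in NOD and 209 to 3723 in NOD.B10. Of 7 tested genes of liver plasma proteins 4 were called lower (Ambp, Fgg, Fgb and Alb; median -1.20), with sums of 281 to 844 units in NOD and 123 to 277 in NOD.B10, that is, with more islet signal and lower loess ratios in NOD, as for Rbp4. What part these had in the hormone readings was not tested.

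On loess ratios the genes did not vary as a block within the strains. After each strain's mean was subtracted, log2 ratios over the 12 arrays correlated at r = 0.87 for Gcg and Rbp4, 0.41 for Gcg and Sst, -0.45 for Gcg and Pyy, -0.41 for Gcg and Ppy, 0.06 for Sst and Pyy and 0.52 for Ppy and Pyy. The points share array, loess curve and slide, and r is given as a description. These pair values are of loess ratios. Except for Gcg and Rbp4 they were not computed on the plain net ratio, where the sign can differ. On the plain net ratio NOD replicate 2 was the highest NOD array for both Gcg (4.53) and Pyy (3.13), but on the loess ratio it was the lowest for Gcg (10.57). The tested genes most like Gcg were 1300017J02Rik (r = 0.89), Prkab2, a subunit of AMP-activated kinase (0.89), and Rbp4. On the plain net ratio, without the curve, these values were 0.45, 0.64 and 0.71. Most like Sst were Fbxo6 (0.96), Atpif1 (0.88) and Manf, a protein of the endoplasmic reticulum (0.86), with 0.86, 0.87 and 0.85 on the net ratio. Most like Pyy were the phosphatase gene Ptpn11 (0.88), the proton pump subunit Atp6v1g1 (0.87) and the coatomer subunit Copg1 (0.86), with 0.93, 0.92 and 0.93. Most like Rbp4 were Pecr (0.96), Macrod1 (0.94) and Myh1 (0.94), with 0.78, 0.73 and 0.62, and most like Ppy were Papss1 (0.84), Lrp12 (0.82) and Ndufa1 (0.81), with 0.23, 0.41 and 0.35.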

How the data were processed

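Per the labels' protocols, RNA of laser-cut islets was amplified as aminoallyl-cRNA and hybridised in Cy5 with a universal reference in Cy3, without a dye swap. For each array the authors deposited scanner intensity values (median signals and local backgrounds) without normalization. Per the file headers the software was Feature Extraction 10.5.1.1. The files also hold the authors' log10 ratio of processed signals, deposited after the scanner's background and dye correction per the file headers. The deposited series table equals the log2 of that ratio for 100% of single-spot probes (within 0.01), with no further centring, a match that the values show and no label states. Its medians run from -0.286 to -0.064 per array. Other deposited columns are quality marks of the scanner.

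Since the files hold no mean signals, normexp (offset 50) was run on median signals, and log2 ratios were fitted with loess inside each array (limma 3.58.1, R 4.3.3). Each array has 45018 spots, 1639 of them controls, and spots flagged as outliers were left out. Of 41174 probes 24375 matched 17016 symbols through accessions in RefSeq's annotation of GRCm38.p6. Testing required the scanner's mark of a Cy5 signal well above background on 4 or more of 12 arrays, which 5347 probes had, and the brightest probe stood for a gene. Differences are NOD minus NOD.B10 from lmFit and eBayes, adjusted over 3920 genes, by code that was tested on simulated data. Balances were tested over all 924 assignments of 6 and 6 arrays. Precision is limited by the number of arrays and by dim signals. The labels describe each sample as from a mouse and number those of a strain. That these are separate mice rests on that numbering, and p-values measure the spread between samples.

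The genes and the lists were chosen with earlier results of these data known. Named are all probes of the 6 genes, Ins1, Ins2 and Iapp, up to 4 tested genes of smallest p per list, and the 3 genes most correlated with each tested hormone or carrier gene. A few list genes outside this rule (such as Irx1, Thra and the genes above background on no array) were named after their values were seen. Samples with the same replicate number correlated at -0.147 to 0.212 in their deviations from the strain means, so the numbers do not pair the mice. Alternatives were other background corrections, scalings, filters and channels, slide, scan day, array brightness, array weights and left-out mice. The net Cy5 scaling, the share of net Cy5 and the block on balances were added after the data were seen. Other list genes enter the counts only, and some genes are not reported here.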

Additional observations from a re-analysis of the deposited data

Results flagged for a closer look

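Among 50 groups of 6 arrays checked for a sample far from the others, 4 were found, and chance alone flags about 1 in 20. The net Cy5 of Gcg on NOD.B10 replicate 5 was 23673 units, against 9373 to 10620 on the other NOD.B10 arrays. The loess log2 ratio of Sst on NOD replicate 3 was 9.27, against 7.37 to 8.02 on the other NOD arrays. The balance of Sst minus Ppy was 9.02 on NOD replicate 3, against 7.21 to 7.78 on the other NOD arrays, and 9.61 on NOD.B10 replicate 5, against 7.27 to 8.11 on the other NOD.B10 arrays. Without NOD replicate 3 the Sst difference was -0.71, and without NOD.B10 replicate 5 it was -0.19. Neither passed.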

How the results depend on the processing

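Values are log2 differences, NOD minus NOD.B10, with a limma adjusted p for genes and an adjusted exact permutation p for balances where given. "Beta" stands for the mean of Ins1, Ins2 and Iapp, and the cause of each change was not tested. One limit is the brightness of the islet channel, which differs between strains and which each scaling treats in its own way, and Ppy and the dim Pyy probe lie near background.

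With median centring, where values are relative to a shift of 0.44, Gcg was 0.77, Rbp4 0.35, Sst 0.53 and Pyy 0.29 (limma adjusted p = 0.0414), and 1982 genes were called higher and 0 lower. The balances were 1.20 for Gcg minus Ppy, 0.48 for Gcg minus Pyy, 0.24 for Gcg minus Sst, -0.78 for Ppy minus Rbp4, -0.057 for Pyy minus Rbp4, 0.96 for Sst minus Ppy, 0.24 for Sst minus Pyy, 1.27 for Gcg minus beta, 0.066 for Ppy minus beta and 0.85 for Rbp4 minus beta. Of the pairs Gcg minus Ppy, Ppy minus Rbp4 and Sst minus Ppy passed (p of 0.0216 to 0.0433). With Cy5 alone after quantile normalisation Gcg was 0.71 and Pyy -0.99 (limma adjusted p = 0.0250), and 265 genes were lower. The balances were 0.94 for Gcg minus Ppy, 1.70 for Gcg minus Pyy, 1.53 for Gcg minus Rbp4, 0.89 for Gcg minus Sst, 0.76 for Ppy minus Pyy, 0.59 for Ppy minus Rbp4, -0.16 for Pyy minus Rbp4, 0.045 for Sst minus Ppy, 0.80 for Sst minus Pyy, 0.64 for Sst minus Rbp4, 2.12 for Gcg minus beta and 0.42 for Pyy minus beta. All 10 pairs but Pyy minus Rbp4 and Sst minus Ppy passed (p of 0.0108 to 0.0379).

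With net Cy5 of bright probes, an alternative chosen after seeing the data, Gcg was -0.51, Sst -0.83 (limma adjusted p = 0.0171) and Pyy -0.86 (limma adjusted p = 0.0101), and 177 genes were higher and 183 lower. The balances were 0.35 for Gcg minus Pyy, 0.31 for Gcg minus Sst, -0.091 for Pyy minus Rbp4, 0.033 for Sst minus Pyy, -0.058 for Sst minus Rbp4, 1.69 for Gcg minus beta and 1.43 for Rbp4 minus beta. With the net ratio of bright probes Sst was -0.69 and Pyy -0.90, with 136 genes higher and 267 lower. The balances were 0.42 for Gcg minus Pyy, 0.21 for Gcg minus Sst, -0.22 for Pyy minus Rbp4, 0.21 for Sst minus Pyy, -0.010 for Sst minus Rbp4, 1.18 for Gcg minus beta, 0.76 for Pyy minus beta and 0.98 for Rbp4 minus beta. With the scanner's processed ratio and with the deposited series table Gcg was -2.05 in each (limma adjusted p = 0.00339 and 0.00341), Sst was -1.71 and -1.72 and Pyy -1.62 in each, 313 genes were lower in each, Ppy minus Pyy was 0.80 and Ppy minus beta 1.85 (adjusted exact permutation p = 0.206).

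With the share of bright spots as a covariate Gcg was 0.60, Pyy -1.21 and Rbp4 0.14, and 3 genes were higher and 0 lower. Without background correction Pyy was -0.095. With a normexp offset of 16 Gcg was -2.31 (limma adjusted p = 0.000396), Pyy -0.67 and Sst -1.40. With no filter Gcg was -1.19 (limma adjusted p = 0.0640) and 1400 genes were lower. With probes above background on all arrays 162 genes were higher and 180 lower. With slide as a fixed block Pyy was -0.35, with 361 genes higher and 355 lower. Without slide 4 Pyy was -0.081, Ppy minus beta 1.97 and Pyy minus beta 2.06. Within slide 2, with 2 mice per strain, Gcg was -0.58, Pyy -0.88 and Rbp4 -1.46, with 38 genes higher and 46 lower. The balances there were -0.0077 for Gcg minus Ppy, 0.30 for Gcg minus Pyy, 0.89 for Ppy minus Rbp4, 0.58 for Pyy minus Rbp4, 0.53 for Sst minus Ppy, 0.84 for Sst minus Pyy and 0.81 for Pyy minus beta. Within slide 3 Gcg was -1.21, Ppy 0.18 and Rbp4 -1.52, Sst minus Ppy was -1.12, and 1 gene was higher and 1 lower.

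With the replicate number as a block Sst minus beta (1.77), Ppy minus beta (2.09) and Pyy minus beta (2.41) had an adjusted exact sign-flip p of 0.0521, and Gcg had a limma adjusted p of 0.00259. This block moved the counts to 637 higher and 596 lower, and the numbers do not pair the mice. Leaving out each mouse in turn gave -1.40 to -0.91 for Gcg, -1.93 to -1.48 for Rbp4, -0.71 to -0.19 for Sst, -0.067 to 0.41 for Pyy, -0.19 to -0.0020 for Ppy, -1.84 to -1.14 for Iapp, -2.33 to -1.34 for Ins1 and -3.76 to -2.98 for Ins2. Gcg lost its call without NOD replicate 1 (-1.10), NOD.B10 replicate 5 (-0.99) or NOD.B10 replicate 6 (-1.09), at a limma adjusted p of 0.0568 to 0.0585. It gave 601 to 851 genes higher and 577 to 808 lower. It gave 0.41 to 0.68 for Gcg minus Rbp4, 1.05 to 1.48 for Sst minus Rbp4, 1.36 to 1.80 for Ppy minus Rbp4, 1.60 to 2.31 for Pyy minus Rbp4 and 0.64 to 1.40 for Gcg minus beta, each of which passed in 1 or 2 of 12 fits. The balances of Sst, Ppy and Pyy against beta passed in all 12, but that of Ppy rests on a probe near background and says nothing of Ppy.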
